A study of Mus musculus with 18 samples.

Results

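The genes described here encode the proteins of the cytosolic ribosome and the host transcripts of small nucleolar RNAs (snoRNAs), followed in mouse embryonic fibroblasts (MEFs) that were being reprogrammed towards pluripotency. Members were chosen by symbol alone, as *Rpl* or *Rps* followed by a digit, *Rplp0*, *Rplp1*, *Rplp2*, *Rpsa*, *Gas5* or *Snhg* followed by a digit. Symbols with -ps, a pseudogene mark, and the *Rps6k* kinases were left out. This gave 92 members among the 9435 genes of the knockdown experiment and 92 among the 9472 genes of the overexpression experiment: 45 large subunit genes, 31 small subunit genes, 8 paralogs or related genes and 8 snoRNA host genes. A further 13 family symbols of the annotation, such as *Rpl24* and *Snhg3*, were not analysed here. *Rps3a2*, *Rps3a3* and *Snhg14* fit the rule by these symbols and carried signal, but were not counted as members.

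Polyadenylated RNA was sequenced in 18 libraries, 2 for each of 9 groups. All MEFs carried the collagen-OKSM allele, a doxycycline-inducible cassette of *Oct4*, *Klf4*, *Sox2* and *c-Myc*, together with the M2rtTA transactivator that doxycycline activates. In the knockdown experiment, NI cells were not infected and were taken at day 0, whereas shSCR, shCPSF3#1, shCPSF3#2, shUL1#1 and shUL1#2 cells received a lentiviral short hairpin RNA and were taken at day 12 of induction. shSCR is the scrambled control, and the other hairpins target *Cpsf3*, the endonuclease that cuts pre-mRNA at the polyadenylation site, or *Hnrnpul1*, which encodes an hnRNP-family RNA-binding protein. In the overexpression experiment, NI cells were again not infected and taken at day 0, and cells infected with the empty retroviral vector (Empty) or with tagged TIA1 (T7-TIA1), an RNA-binding regulator of splicing and translation, were taken at day 12. Infected cells were sorted for GFP, grown on irradiated feeder fibroblasts and harvested together with that feeder layer, so day, induction, infection and feeder RNA differ at once between NI and every day 12 group and cannot be told apart. No label says that the 2 libraries of a group came from separate cultures, so the p-values measure only the spread between these libraries, which may be technical. In such bulk samples, fewer cells of a type and less RNA per cell cannot be told apart either.

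A cytosolic ribosome holds one copy of nearly every protein of its large and small subunit, and most of these proteins are made from one highly transcribed gene each. Their mRNAs typically begin with a cytosine followed by a run of pyrimidines, the 5′ terminal oligopyrimidine (TOP) tract, through which mTOR signalling controls their translation. Many of the same genes, and non-coding hosts such as *Gas5* and the *Snhg* genes, carry snoRNAs in their introns; the snoRNA is trimmed from the excised intron and guides modification of ribosomal RNA, while the spliced host RNA of several *Snhg* genes is degraded through nonsense-mediated decay. In the GENCODE M21 annotation (GRCm38), 38 of the 92 members hold an annotated snoRNA on their own strand: 30 ribosomal protein genes with 58 snoRNAs and all 8 host genes with 27. The snoRNAs themselves were not measured here, and every level below is that of the polyadenylated host.

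The sequences around the transcription start of 5 members that recur in the results show how pyrimidine runs near the start vary between genes. Each runs from 10 bases before to 20 bases from the RefSeq start (GRCm38.p6), and capitals mark the longest cytosine followed by pyrimidines where that run has at least 5 bases.
Rpl12 (chr2:32961702-32961731, plus strand): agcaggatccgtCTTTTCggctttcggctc
Rps18 (chr17:33955646-33955675, minus strand): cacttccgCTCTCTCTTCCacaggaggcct
Rpl28 (chr7:4792955-4792984, plus strand): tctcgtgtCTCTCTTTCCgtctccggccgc
Rpl39l (chr16:10170218-10170247, plus strand): aggCCTTTCCggatttccggtggtcgccat
Rps16 (chr7:28350679-28350708, plus strand): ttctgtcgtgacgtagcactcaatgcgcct
The window of *Rps18* and that of *Rpl28* hold a long run across the start, and *Rpl12* holds a short one just after the start base. The run marked in *Rpl39l* ends before the start base, so it lies outside an mRNA that begins there. The *Rps16* window holds none of that length at the RefSeq start used. Of the 70 members with a RefSeq promoter entry, 28 (40.0%) held, within this 30-base window on the transcribed strand, a C followed by at least 6 bases that were each C or T, against 3640 of all 27025 promoters (13.5%). A C at the start base itself followed by at least 4 such bases stood in 13 members (18.6%) and in 673 of all promoters (2.49%). The other 22 members had no entry, and a match is a description of letters, not of translation.

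Levels are given in the deposited unit, CPM (a gene's count as a share of the library's count, on a fixed total) scaled further by a factor per library (scaled CPM), and changes as a difference of log2(scaled CPM + 1) with its standard error (SE). A gene or event was called where limma's moderated test, adjusted over everything tested by the Benjamini-Hochberg method, gave a p under 0.05. Most counts at an unadjusted p under 0.05 have no share of all genes or events beside them and cannot be set against it. The libraries held between 98882289 and 109047542 reads on listed genes, as the spacing of low values gives it. The targeted genes followed the labels: *Cpsf3* was at 86.7 and 117.9 scaled CPM in shSCR, 38.6 and 50 in shCPSF3#1 and 42.4 and 77.1 in shCPSF3#2, *Hnrnpul1* was at 156.4 and 185 in shSCR against 38.7 to 85.8 in the 4 shUL1 libraries, and *Tia1* was at 85.6 and 77.0 in Empty and 613 and 469 in T7-TIA1. In 4 of the 6 groups of the knockdown experiment the second library stood above the first across most members, with a median difference on the log2 scale of 0.35 in shSCR (89 of 92 members), 0.45 in shCPSF3#2 (91 of 92), 0.30 in shUL1#1 (91 of 92) and 0.10 in shUL1#2 (79 of 92). The difference was -0.02 in shCPSF3#1 (44 of 92 higher) and -0.07 in NI (8 of 92). Counts of members and of member events called against shSCR, or in shSCR against NI, are therefore also given without its second library where that moved them by over 1.5 times. Markers of other cells also differed between groups: 11 listed fibroblast markers summed to 20421 to 23915 scaled CPM in NI, 12551 to 15400 in shSCR and 22877 to 42021 over the knockdown groups of *Cpsf3* and *Hnrnpul1*. The 3 listed macrophage markers summed to 9.57 to 10.6 in NI, 171 to 300.4 in shSCR and 259 to 1814 over those knockdown groups. All 10 pluripotency markers looked for were outside both tables. Every listed gene reached a value of 5 in at least 9 libraries of the knockdown table or 6 of the overexpression table. Absence from the tables therefore does not show a lack of expression. In the overexpression experiment 10 listed fibroblast markers summed to 21959 and 50983 in the NI libraries, 11523 to 13888 in Empty and 10250 to 11134 in T7-TIA1. The part of these cells in the results below was not tested.

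The share of a library that the 92 members took up was largest in shSCR and smallest in shCPSF3#1 cells of the knockdown experiment, and was larger in both day 12 groups than in NI in the overexpression experiment. It was 5.24% and 5.12% of the summed level in NI, 6.71% and 8.55% in shSCR, 3.33% and 3.73% in shCPSF3#1, 4.08% and 5.93% in shCPSF3#2, 4.64% and 6.13% in shUL1#1 and 5.80% and 6.55% in shUL1#2. Both shSCR libraries were above every other library of the knockdown experiment, and both shCPSF3#1 libraries were below every other one. With overexpression the share was 5.23% and 4.77% in NI, 7.49% and 6.94% in Empty and 6.45% and 6.93% in T7-TIA1, and the second T7-TIA1 library lay next to the lower Empty library.

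**Figure D1:**
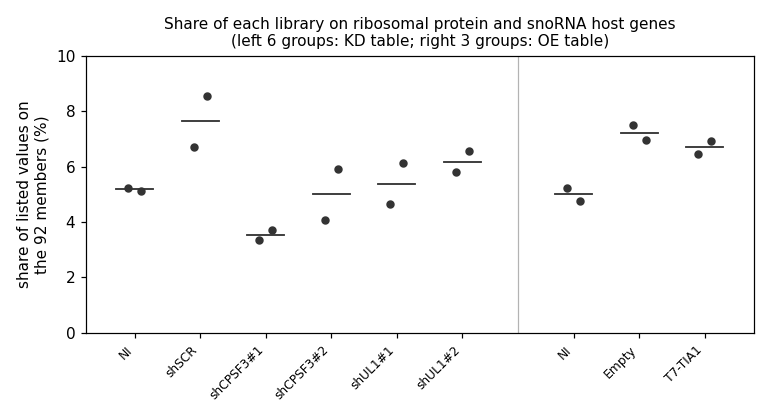
Share of each library's summed level on the 92 members, in percent, with 1 point per library and the groups of both experiments along the horizontal axis. The shSCR points sit at 6.71% and 8.55%, above the NI points at 5.24% and 5.12%, and the shCPSF3#1 points are the lowest at 3.33% and 3.73%.

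The comparison of shSCR with NI asks how these genes differ between fibroblasts and cells at day 12 of control reprogramming. Most members had higher values at day 12. Of the 92 members 24 rose (26.1%, against 22.5% of all genes called higher) and 1 fell (*Rps19bp1*; 22.0% of all genes were called lower). The median log2 difference was 0.43 for the members and 0.00 for all genes, 87 members had a difference above 0, and in 77 members both shSCR libraries lay above both NI libraries (38.7% of all genes did). By class, 8 of 45 large subunit, 11 of 31 small subunit, 3 of 8 paralog and 2 of 8 host genes rose.

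Among the core proteins the rises were small. *Rpl22*, a large subunit protein, was at 314 and 297 scaled CPM in NI and 482 and 668 in shSCR, a log2 difference of 0.89 ± 0.22 (SE, n = 2 and 2; limma adjusted p = 0.013). *Rps28*, a small subunit protein, went from 317.5 and 318 to 475 and 612 (0.76 ± 0.17, limma adjusted p = 0.0088), and *Rps27*, another small subunit protein, rose by 0.76 ± 0.18 (limma adjusted p = 0.01). In each of these the 2 groups did not overlap. *Rplp0*, the acidic stalk protein that is often used as a reference gene, was at 2213 and 2233 in NI and 2194 and 2474 in shSCR, where the groups overlapped (0.07, not called). Other core members that did not pass the test had values of 0.53 for *Rpl5* (limma adjusted p = 0.079), 0.35 for *Rpl11*, 0.43 for *Rps6* and 0.10 for *Rpl10*. Without the second shSCR library 3 members were called and the median difference of the members was 0.26; without either NI library 5 or 3 were called.

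The same question in the overexpression experiment, Empty against NI, gave 36 members that rose (39.1%, against 22.8% of all genes) and 0 that fell (23.6% of all genes; 53 members had an unadjusted p under 0.05 in either direction). The median difference was 0.38 for the members, and 78 members had both Empty libraries above both NI libraries, against 37.6% of all genes. *Rpl36*, a large subunit protein, was at 313 and 252 in NI and 463 and 407 in Empty (0.63 ± 0.15, limma adjusted p = 0.021), and *Rps21*, a small subunit protein, was at 254 and 261 in NI and 426 and 370.5 in Empty (0.62 ± 0.13, limma adjusted p = 0.014). For both genes the groups were apart. *Rpl22* rose here too, by 0.62 ± 0.13 (limma adjusted p = 0.012). The count fell to 2 without the first Empty library and to 4 without the second, rose to 65 without the first NI library, and was 8 without either T7-TIA1 library. With values scaled to equal sums over listed genes, 74 members were called in Empty against NI. The shares of all genes in these alternative fits are not given here. The 2 experiments were normalised separately, and tests were made within each of them.

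**Figure D2:**
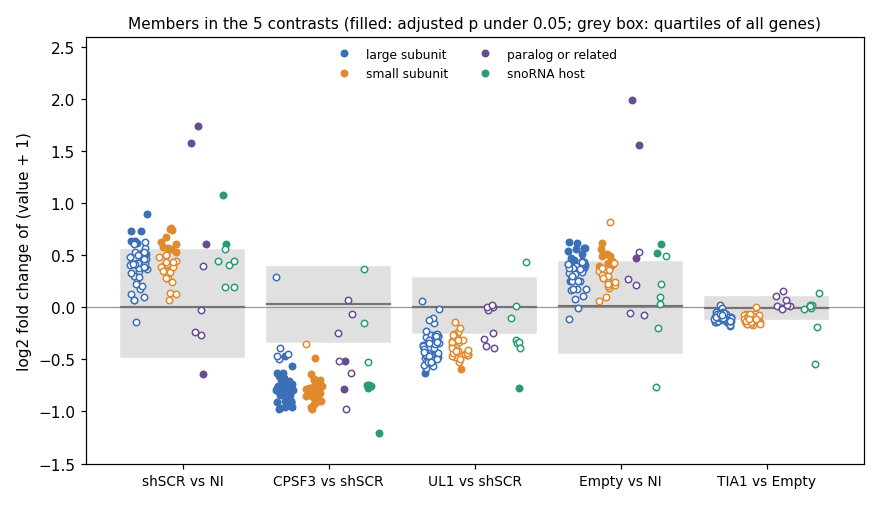
Log2 difference of each of the 92 members in the 5 main comparisons, with members grouped by class, filled points for those called at an adjusted p under 0.05, and a grey box for the quartiles of all genes tested. In CPSF3 against shSCR the members have a median of -0.77 beside 0.03 for all genes, and in T7-TIA1 against Empty the median is -0.10 with no filled point.

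Depletion of CPSF3 was accompanied by lower levels of almost the whole set relative to shSCR. Both hairpins together (4 libraries against 2) gave 77 members that fell (83.7%, against 9.35% of all genes called lower) and 0 that rose (16.7% of all genes). The median difference was -0.77, beside 0.03 for all genes, and 3 members had a value above 0. Among the classes 40 of 45 large subunit, 30 of 31 small subunit, 2 of 8 paralog and 5 of 8 host genes fell. *Rps16*, a small subunit protein, was at 683 and 824 scaled CPM in shSCR, 324 and 319 in shCPSF3#1 and 388 and 524 in shCPSF3#2 (-0.98 ± 0.15, limma adjusted p = 0.0047). *Rpl12*, which lies in the stalk base of the large subunit, was at 1388 and 1819 in shSCR, 671 and 690 in shCPSF3#1 and 788 and 1171 in shCPSF3#2 (-0.97 ± 0.19, limma adjusted p = 0.011). For both genes every knockdown library was below the lower shSCR library, and the second shCPSF3#2 library was the nearest to it. *Rps18*, a protein of the small subunit head, and *Rpl8*, a large subunit protein, fell by 0.96 ± 0.18 and 0.97 ± 0.27 (limma adjusted p = 0.0093 and 0.033).

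Well-known members with roles outside the ribosome moved with the rest. *Rpl5* and *Rpl11*, which bind the p53 inhibitor MDM2 when ribosome assembly is disturbed, fell by 0.93 and 0.79 on the log2 scale (limma adjusted p = 0.011 and 0.021), and *Rps6*, the substrate of the S6 kinases, fell by 0.86 (limma adjusted p = 0.010). *Rps27a*, which encodes a fusion of ubiquitin and a small subunit protein, fell by 0.85 (limma adjusted p = 0.015). *Rplp0* was at 1535 and 1481 in shCPSF3#1 and 1654 and 2136 in shCPSF3#2, below both shSCR libraries, and missed the threshold (-0.47, limma adjusted p = 0.051). *Rpl13a* (-0.50, limma adjusted p = 0.10) and *Rplp1* (-0.39) did not pass either.

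The 2 hairpins differed in strength in these libraries and were not tested against each other. With shCPSF3#1 alone 81 members fell (14.4% of all genes did), with a median of -0.97, and 87 members did not overlap with shSCR on the lower side (34.4% of all genes). Without the second shSCR library 26 members were called with shCPSF3#1 and 0 by limma with shCPSF3#2 (13 at an unadjusted p under 0.05). With shCPSF3#2 alone 2 fell (1.12% of all genes), with a median of -0.56, and 70 lay wholly below shSCR (16.7% of all genes). A fit that pairs day 12 libraries by replicate number gave 56 members that fell with shCPSF3#2 over all groups (6.89% of all genes) and 66 over the day 12 groups (13.4%). The CPSF3 result depends on shSCR as the reference. Without the second shSCR library 2 members were called, *Rps16* among them, 65 had an unadjusted p under 0.05 and the median was -0.60, and against NI 14 members fell (19.9% of all genes) and 1 rose (25.7%), with a median of -0.33. In a fit of only the compared groups 0 members were called by limma, 79 had an unadjusted p under 0.05 and the lowest adjusted p was 0.0529. The paired fit called 84 members over all groups and 87 over the day 12 groups, each set holding all 77 of the main fit. The shares of all genes in these fits are not given here.

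Depletion of hnRNP UL1 gave a smaller shift in the same reference frame. Against shSCR 3 members fell (3.26%, against 3.15% of all genes called lower, close to the share among all genes) and 0 rose (7.31% of all genes), with a median of -0.36 and 37 members at an unadjusted p under 0.05. The 3 were the host *Snhg6*, *Rps16* and *Rpl28*, a large subunit protein. *Rpl28* was at 735 and 898 in shSCR, 450.5 and 539 in shUL1#1 and 552 and 565 in shUL1#2, with every knockdown library below both shSCR libraries (-0.63 ± 0.15, limma adjusted p = 0.037). *Rps16* was at 439.9 and 510.0 in shUL1#1 and 502 and 537 in shUL1#2 (-0.60 ± 0.15, limma adjusted p = 0.042). In the paired fit over all groups 27 members fell, against 12.8% of all genes, and in the paired fit over day 12 groups 51 were called, 50 of them lower (19.5% of all genes). In contrast 0 were called by limma in a fit of only the compared groups, and 0 without any one of 7 libraries: the second shSCR library (median -0.19, 2 members at an unadjusted p under 0.05), the first one, either NI library, the first shUL1#1 library or either shUL1#2 library.

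Neither shUL1 hairpin alone gave a member called by limma (4.93% and 6.23% of all genes were called; 44 members at an unadjusted p under 0.05 for shUL1#1 and 6 for shUL1#2), while the paired fit over all groups called 27 lower for the first, where 7.45% of all genes were lower, and 4 for the second, where 9.09% were. Against NI the UL1 median was 0.06, with 5 members called higher and 1 lower, where 23.5% and 19.4% of all genes were. Compared directly, CPSF3 and UL1 libraries differed by a median of -0.40 over the members, with 0 members called by limma (0.0424% of all genes), 70 at an unadjusted p under 0.05 and 62 called lower in the paired fit of day 12 groups (6.75% of all genes). Both comparisons with shSCR share its 2 libraries. Beside these results, fibroblast marker sums were higher in every CPSF3 and UL1 library than in shSCR. Macrophage marker sums were higher too, except that shUL1#1 overlapped with shSCR. Epithelial marker sums were lower in every CPSF3 and UL1 library than in shSCR. The part of these differences was not tested.

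No difference between T7-TIA1 and Empty was called for these genes. No gene in the table passed the test (0% of all genes; 393 genes and 0 members had an unadjusted p under 0.05, by limma), and the median difference of the members was -0.10. Both T7-TIA1 libraries lay below both Empty libraries for 38 members (24.7% of all genes) and above for 4 (27.3%). Among the host genes the differences included -0.55 ± 0.33 for *Snhg18* and -0.19 for *Snhg8*.

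*Rps4l* (chromosome 6, 148354656 to 148355598, plus strand), annotated as a transcribed processed pseudogene, was at 35.1 and 33.0 scaled CPM in NI and 89.9 and 151 in shSCR (1.75 ± 0.53, limma adjusted p = 0.029), and at 41.8 and 48.1 in the other NI pair and 185 and 179 in Empty (2.00 ± 0.11, limma adjusted p = 0.0008). *Rpl39l* (chromosome 16, 10170226 to 10174911, plus strand), a paralog of *Rpl39* best known from male germ cells, was at 7.2 and 6.9 in NI and 18.5 and 28.7 in shSCR (1.58 ± 0.39, limma adjusted p = 0.013), and at 8.4 and 6.6 in NI and 23.4 and 24.5 in Empty (1.56 ± 0.14, limma adjusted p = 0.0014). These were the 2 members with the largest rise in each day 12 control, and no day 12 library of either control group overlapped with NI. Without the second shSCR library neither was called in shSCR against NI, with differences of 1.38 and 1.28. Their canonical counterparts moved less, with 0.35 for *Rps4x* and 0.43 for *Rpl39* in shSCR against NI, neither called.

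Under CPSF3 depletion the canonical genes passed the test and these paralogs did not, although both had values below 0. A difference between a paralog and its counterpart was not tested. *Rpl39l* stood at 7.5 in both shCPSF3#1 libraries and at 13.1 and 21.1 in shCPSF3#2 (-0.97, limma adjusted p = 0.067), and *Rps4l* ranged from 47.5 to 157 over the 4 libraries (-0.63, limma adjusted p = 0.32), so neither was called, while *Rps4x* and *Rpl39* fell by 0.75 and 0.71 (limma adjusted p = 0.024 and 0.0096). *Rpl22l1*, which can take the place of *Rpl22* in the ribosome, was at 79.3 and 77.7 in NI and 100.1 and 144 in shSCR (0.61 ± 0.16, limma adjusted p = 0.017) and fell by 0.52 with CPSF3 depletion (limma adjusted p = 0.032), next to a fall of 0.96 for *Rpl22* (limma adjusted p = 0.011). *Rps27l*, a paralog of *Rps27*, did not follow it: it was at 207 and 236 in NI and 167 and 209.5 in shSCR, and had a value of 0.07 with CPSF3 depletion where *Rps27* fell by 0.79. *Rps19bp1*, a binding protein of RPS19, was at 26.2 and 25.1 in NI and 14.2 and 18.3 in shSCR, the one member that fell (-0.64 ± 0.22, limma adjusted p = 0.045), and had a value of -0.07 with CPSF3 depletion. The other related members, *Rpl7l1*, *Rpl36al* and *Rpl37rt*, had log2 differences of -0.27, -0.02 and 0.40 in shSCR against NI, none called, and *Rpl37rt* fell by 0.78 with CPSF3 depletion (limma adjusted p = 0.046).

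**Figure D3:**
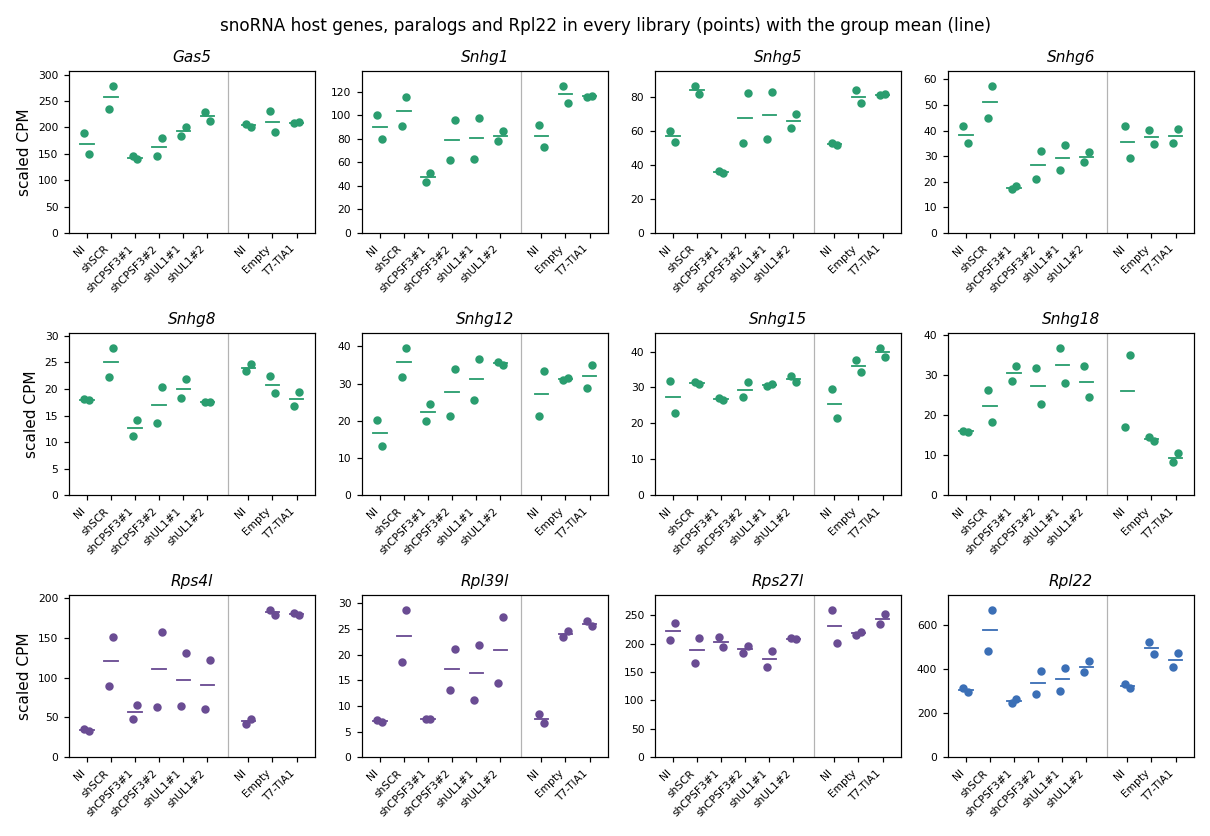
Scaled CPM of the 8 snoRNA host genes and of Rps4l, Rpl39l, Rps27l and Rpl22 in every library, with 1 point per library, groups along the horizontal axis and 1 panel per gene. Rps4l and Rpl39l rise from NI to the day 12 controls in both experiments, and Snhg6 lies between 17.0 and 31.9 in the CPSF3 libraries, below both shSCR points at 45 and 57.6.

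Some members are listed beside near-identical copies, and their levels are uncertain. *Rpsa* took between 86.8% and 91.2% of its sum with the copy *Rpsa-ps10* in the knockdown libraries and between 99.1% and 99.3% in the overexpression libraries. *Rps3a1* took between 47.9% and 71.2% of its sum with the copies *Rps3a2* and *Rps3a3* in the knockdown libraries, and 80.4% and 50.2% in the 2 NI libraries of the overexpression experiment.

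The snoRNA host gene *Snhg6* (chromosome 1, 9941959 to 9944118, minus strand) fell the most of all members with CPSF3 depletion: it was at 45 and 57.6 scaled CPM in shSCR, 17.0 and 18.3 in shCPSF3#1 and 21.2 and 31.9 in shCPSF3#2 (-1.21 ± 0.20, limma adjusted p = 0.0062). It fell with UL1 depletion as well, to 24.6 and 34.2 in shUL1#1 and 27.8 and 31.5 in shUL1#2 (-0.78 ± 0.20, limma adjusted p = 0.048), and all 8 depleted libraries lay below both shSCR libraries. Neither call held without the second shSCR library, with differences of -1.04 and -0.60. *Snhg6* was at 41.8 and 35.1 in NI, so these libraries also lay below NI. *Gas5*, which hosts 9 annotated snoRNAs (1 of them under a microRNA symbol) and was named for its accumulation in growth-arrested cells, was at 189 and 149 in NI, 235 and 279 in shSCR, 145 and 139.6 in shCPSF3#1 and 146 and 180.1 in shCPSF3#2. It rose in shSCR against NI (0.61 ± 0.16, limma adjusted p = 0.017), fell with CPSF3 depletion (-0.75 ± 0.14, limma adjusted p = 0.0088) and had a value of 0.04 in Empty against NI. The intron of *Snhg6* that holds *Snord87* and 1 intron of *Gas5* that holds *Snord47* carry box C/D snoRNAs, shown here because the hosts' calls concern the spliced RNA around them and not these sequences; capitals mark box C (TGATGA) and box D (CTGA), both from GENCODE M21 on GRCm38.
Snord87 (chr1:9942463-9942549, minus strand): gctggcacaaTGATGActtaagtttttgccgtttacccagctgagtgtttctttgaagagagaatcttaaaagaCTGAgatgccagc
Snord47 (chr1:161038082-161038158, plus strand): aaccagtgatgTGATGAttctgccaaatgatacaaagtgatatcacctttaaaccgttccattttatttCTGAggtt

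*Snhg1*, *Snhg5* and *Snhg8* fell with CPSF3 depletion by 0.76 ± 0.24, 0.78 ± 0.21 and 0.75 ± 0.18 on the log2 scale (limma adjusted p = 0.048, 0.029 and 0.019). *Snhg5* was at 86.5 and 81.7 in shSCR, 36.4 and 35.3 in shCPSF3#1 and 52.7 and 82.1 in shCPSF3#2, so the second shCPSF3#2 library overlapped with shSCR. *Snhg1* and *Snhg5* rose in Empty against NI by 0.52 ± 0.14 and 0.60 ± 0.10 (limma adjusted p = 0.030 and 0.0064). *Snhg12*, host of 4 annotated snoRNAs, was at 20.2 and 13.2 in NI and 31.9 and 39.7 in shSCR (1.08 ± 0.28, limma adjusted p = 0.016), and had values of -0.52 with CPSF3 depletion (limma adjusted p = 0.14) and 0.22 in Empty against NI. *Snhg15* had a value of 0.20 in shSCR against NI, -0.15 with CPSF3 depletion and 0.50 in Empty against NI (limma adjusted p = 0.059).

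*Snhg18* (chromosome 15, 32240565 to 32244662, minus strand) was at 16.0 and 15.8 in NI, 26.3 and 18.3 in shSCR, 28.5 and 32.3 in shCPSF3#1, 31.8 and 22.7 in shCPSF3#2, 36.8 and 28.1 in shUL1#1 and 32.1 and 24.6 in shUL1#2. Its level in the other experiment was 17.0 and 35.0 in NI, 14.4 and 13.6 in Empty and 8.2 and 10.4 in T7-TIA1. It rose against NI with CPSF3 depletion (0.81 ± 0.21, limma adjusted p = 0.014) and with UL1 depletion (0.88 ± 0.21, limma adjusted p = 0.010), and is the 1 member counted above as higher in CPSF3 than in NI. Its other differences were not called (0.44 in shSCR against NI, 0.36 with CPSF3 and 0.44 with UL1 depletion, -0.77 ± 0.33 in Empty against NI with a limma adjusted p of 0.11). Its higher NI library of the overexpression experiment was also the one with the higher sum of fibroblast markers, 50983 against 21959; the part of these cells in the value was not tested.

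Splicing of the members was read from percent spliced in (PSI), the share of transcripts that keep an exon, an intron or a splice site choice. Of 374159 events tested in the knockdown experiment 1107 belonged to members, and of 380903 in the overexpression experiment 1217 did; tests were on log2 ratios of inclusion to exclusion reads. In shSCR against NI 88 member events were called (of 1107, where 4.53% of all events were), of which 42 were introns, 31 alternative donors, 11 alternative acceptors and 4 exons. CPSF3 depletion gave 28 (0.612% of all events), UL1 depletion 12 (0.146%), and Empty against NI and T7-TIA1 against Empty 0 by limma (0.000525% and 0% of all events; 238 and 75 member events at an unadjusted p under 0.05). A fit of PSI in percent did call some member events in both overexpression comparisons, as given in the closing section. The counts of called events rested on single libraries. For shSCR against NI 25 and 29 events were called without the first and second NI library, and 32 and 43 without the first and second shSCR library. For CPSF3 depletion 9 and 11 were called without the first and second shSCR library, 7 and 3 without those of shCPSF3#1, 9 and 10 without those of shCPSF3#2 and 11 without either of shUL1#1. For UL1 depletion 4 and 7 were called without the first and second shSCR library, 0 by limma without any 1 of the 4 shUL1 libraries, 4 without either library of shCPSF3#1 and 5 without either of NI. Donor and acceptor alternatives of one site add up to 100%, so their directions were not counted.

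With no test, most introns of the members had a slightly lower mean PSI in shSCR than in NI. Of 384 introns of 90 genes, 37 were called lower (1.63% of all introns) and 5 higher (3.34%), and the mean PSI was lower in 277 of them, where 30.0% of all introns were lower. Against shSCR, CPSF3 depletion gave 16 introns called higher (0.132% of all introns) and 0 lower (0.575%; 341 member events of any kind had an unadjusted p under 0.05, by limma), and UL1 depletion 5 higher (0.0298%) and 0 lower (0.0895%; 230 member events). With no test, the mean PSI was higher than in shSCR in 285 introns with CPSF3 depletion (38.1% of all introns) and in 310 with UL1 depletion (42.8%), and lower in 71 with UL1 depletion (48.7%). The hairpins differed in this: higher and lower introns numbered 352 and 26 with shUL1#1 but 194 and 177 with shUL1#2, and 214 and 158 with shCPSF3#1 but 306 and 70 with shCPSF3#2. Retention was very low in ribosomal protein genes, with a median PSI of 0.31 in NI and 0.26 in shSCR over 335 introns, and far higher in host genes, with 15.1 and 12.7 over 31 introns. The 58 introns of ribosomal protein genes that hold a snoRNA had a median PSI of 0.51 in NI and 0.41 in shSCR, and the 277 without one 0.285 and 0.235.

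These differences are small beside the spread between libraries. The median difference from the NI mean was 0.047 in the first NI library and -0.047 in the second, -0.06 and -0.04 in the shSCR libraries and -0.07 and 0.00 in those of shCPSF3#1, so the median shift of shSCR was smaller than the distance between the NI libraries. Leaving out 1 library left 10 to 34 introns called lower or higher in shSCR against NI, 1 to 11 with CPSF3 depletion and 0 to 5 with UL1 depletion; without the second shSCR library it was 19, 3 and 3. In Empty against NI 292 of 385 introns had a higher mean PSI (47.7% of all introns), the opposite direction to shSCR against NI, with no call by limma.

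**Figure D4:**
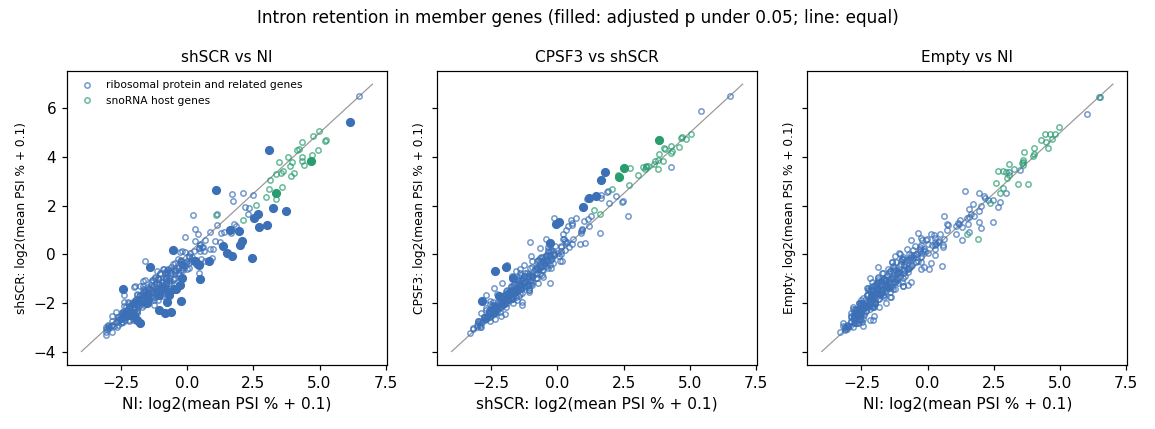
Mean PSI of each member intron on a log2(PSI + 0.1) scale, with the control group on the horizontal and the compared group on the vertical axis, for shSCR against NI, CPSF3 against shSCR and Empty against NI. Of 384 introns 277 lie below the diagonal in the first panel and 285 above it in the second, and 292 of 385 lie above it in the third.

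The called introns of host genes were those of *Snhg6* and *Snhg15*. One intron of *Snhg6* (chr1:9942156-9942322) had a PSI of 10.2 and 10.2 in NI, 4.97 and 6.19 in shSCR, 10.1 and 10.45 in shCPSF3#1, 12.6 and 12.8 in shCPSF3#2, 16.8 and 15.4 in shUL1#1 and 12.5 and 10.3 in shUL1#2, with limma adjusted p-values of 0.0152, 0.0191 and 0.0183 for shSCR, CPSF3 and UL1. Both shSCR libraries were below every other library of that experiment. The same intron in the overexpression experiment was at 6.87 and 8.71 in NI and 10.1 and 10.7 in Empty. The first intron of *Snhg6* (chr1:9942718-9944019) was at 5.32 and 4.64 in shSCR and between 7.46 and 13.3 in the 8 depleted libraries (limma adjusted p = 0.0457 and 0.0373 for CPSF3 and UL1). These calls held in 4 and 2 of 15 alternative settings and were lost without the second shSCR library. Those of the intron described before it held without that library, and in 11 of 15 settings for each of shSCR, CPSF3 and UL1. The *Snord87* intron between them (chr1:9942392-9942609) was at 4.77 and 4.84 in shSCR and between 7.46 and 12.8 in the depleted libraries, and was not called. An intron of *Snhg15* (chr11:6528375-6528547) was at 25.3 and 25.3 in NI, 14.2 and 14.0 in shSCR, 29.1 and 27.6 in shCPSF3#1 and 26.6 and 21.1 in shCPSF3#2 (limma adjusted p = 0.0132 for shSCR and 0.0212 for CPSF3; both calls were lost without the second shSCR library).

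Introns of core genes with the clearest separation were picked after their values were seen. The *Rpl27* intron had a PSI of 13.9 and 12.3 in NI, 3.54 and 3.14 in shSCR, 7.93 and 11.6 in shCPSF3#1 and 8.95 and 13.3 in shCPSF3#2, and the *Rpl41* intron 70.8 and 69.3 in NI and 46.5 and 39.7 in shSCR. In the overexpression experiment *Rpl41* was at 64.4 and 65.9 in NI and 53.8 and 56.2 in Empty, without overlap, whereas *Rpl27* was at 12.45 and 9.69 in NI and 9.56 and 12.45 in Empty, with overlap.

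A wide separation of the groups lay in *Rps24*, which encodes a small subunit protein. An acceptor 85 bases upstream of the annotated one, before the exon at chr14:24491750-24491815, had a PSI of 1.80 and 2.42 in NI, 50 and 46.4 in shSCR, 5.13 and 3.40 in shCPSF3#1, 11.5 and 13.9 in shCPSF3#2, 11.4 and 13.9 in shUL1#1 and 14.7 and 16.4 in shUL1#2. Both shSCR libraries were above every other library, and both NI libraries were the lowest. The limma adjusted p-values were 0.0008 for shSCR against NI, 0.0052 for CPSF3 and 0.0158 for UL1 against shSCR, calls that held without the second shSCR library. The first 2 of these calls held in all 15 alternative settings and the UL1 call in 11. In the overexpression experiment the upstream acceptor was at 2.93 and 4.79 in NI, 22.2 and 15.6 in Empty and 14.0 and 12.5 in T7-TIA1. The groups did not overlap, and neither difference was called (limma adjusted p = 0.135 and 0.82). The 2 acceptors are shown with 20 bases up to and including the AG, in capitals, and 10 bases after it (GENCODE M21, GRCm38).
Rps24 annotated acceptor (chr14:24491730-24491759, plus strand): gacttgtgtgttacctgcAGaatgacacag
Rps24 upstream acceptor (chr14:24491645-24491674, plus strand): caattcctgcctctttctAGactgcattgc

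The PSI of that event rests on 117 to 394 reads per library, a small part of the gene's reads. Set against the reads spliced across the first intron of *Rps24*, between 5673 and 14900 per library, upstream acceptor reads were 0.640 and 0.831 per 1000 in NI, 8.0 and 8.72 in shSCR, 1.06 and 1.09 in shCPSF3#1, 2.73 and 5.13 in shCPSF3#2, 2.22 and 4.05 in shUL1#1 and 2.63 and 4.05 in shUL1#2, a measure chosen after the PSI values were seen and given with no test. They were 0.848 and 1.13 in the other NI pair, 7.13 and 5.21 in Empty and 5.18 and 3.79 in T7-TIA1. On both scales shSCR was highest and NI lowest in the knockdown experiment, and Empty was highest and NI lowest in the other. A donor choice of *Rps24* followed the acceptor, with a PSI of 9.72 and 13.6 in NI, 62.9 and 59.3 in shSCR and 18.4 to 32.5 in the CPSF3 libraries (limma adjusted p = 0.0062 and 0.024, the latter lost without the second shSCR library); the UL1 libraries, at 25.7 to 35.5, missed the threshold (limma adjusted p = 0.055). Empty was at 33.0 and 24.6 and NI of that experiment at 7.91 and 15.2, which was not called.

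**Figure D5:**
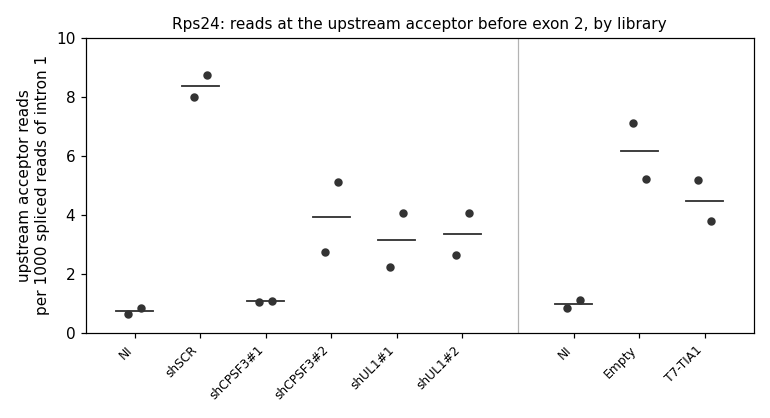
Reads of the Rps24 upstream acceptor per 1000 reads spliced across the first intron, with 1 point per library and groups along the horizontal axis. The shSCR points sit at 8.0 and 8.72, the NI points at 0.640 and 0.831, and the CPSF3 and UL1 points between 1.06 and 5.13.

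*Rpl5* showed a second large change. A donor choice next to chr5:107900874-107901071 had a PSI of 91.9 and 92.2 in NI, 56.1 and 48.1 in shSCR, 93.9 and 94.2 in shCPSF3#1, 88.3 and 91.2 in shCPSF3#2, 84.9 and 83.3 in shUL1#1 and 93.4 and 84.3 in shUL1#2 (limma adjusted p = 0.0074, 0.0172 and 0.0445 for shSCR, CPSF3 and UL1), on 18 to 82 reads per library. The UL1 call held in 1 of 14 alternative settings and the CPSF3 call in 11; without the second shSCR library the first was lost and the second was not. Both shSCR libraries stood below all others, while the other control group at day 12, Empty, was at 78.4 and 87.9, with NI at 91.0 and 86.1 and the 2 overlapping. A *Rpl29* donor went from 0.51 and 0.52 in NI to 40.0 and 37.0 in shSCR, but was at 85.4 and 88.6 in the NI libraries of the overexpression experiment, so the values of the 2 pairs of non-infected MEFs lay further apart than those of shSCR and NI. Whether reads of this gene were mapped alike in the 2 experiments was not tested. A 37-base exon of *Gas5* (chr1:161036208-161036244), picked after its values were seen, was at 86.0 and 87.5 in NI and 98.6 and 97.3 in shSCR (limma adjusted p = 0.0085), but at 96.1 and 97.4 in the other NI pair.

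Other genes of the pathway were followed as lists. Of 129 listed ribosome biogenesis genes, 3 rose and 17 fell in shSCR against NI, with a median of -0.28, whereas 41 of 130 rose and 2 fell in Empty against NI, with a median of 0.33. Both lists are read against 22.5% and 22.0% of all genes in the first experiment and 22.8% and 23.6% in the second; this difference between the 2 control comparisons was not tested. The changes called included falls of *Pop1*, a subunit of RNase P and RNase MRP, by 1.85 in shSCR and rises of *Mdn1*, the AAA ATPase that remodels pre-60S particles, and *Exosc5*, an exosome subunit, by 1.56 and 1.4 in Empty. With CPSF3 depletion 1 biogenesis gene rose and 3 fell, with a median of -0.29, where 16.7% of all genes rose and 9.35% fell, and with UL1 depletion 1 rose and 0 fell, where 7.31% and 3.15% did. Both counts lay below these shares. Of the 11 listed snoRNP core genes none was called in the 3 knockdown comparisons by limma, with medians of -0.35, -0.41 and -0.18 and with 2, 3 and 4 at a difference above 0, beside the same shares of all genes, and 3 of 12 rose in Empty, among them *Ruvbl2*, an ATPase of the snoRNP assembly complex, by 1.09.

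Translation factors and other genes with a TOP start, 25 in all, had 5 that rose and 2 that fell in shSCR against NI, 0 and 9 with CPSF3 depletion (median -0.52), 0 and 2 with UL1 depletion (median -0.27) and 6 and 1 in Empty. For these lists too, 22.5% of all genes rose and 22.0% fell in shSCR against NI, 16.7% and 9.35% with CPSF3 depletion, 7.31% and 3.15% with UL1 depletion and 22.8% and 23.6% in Empty. *Eif4a2*, an RNA helicase of translation initiation that itself hosts snoRNAs, rose by 1.75 in shSCR (limma adjusted p = 0.0001) and by 1.05 in Empty (limma adjusted p = 0.0037), and fell by 0.97 with CPSF3 and 0.80 with UL1 depletion (limma adjusted p = 0.0020 and 0.0085). *Rack1*, a protein of the small subunit with another kind of symbol, fell by 0.88 with CPSF3 depletion (limma adjusted p = 0.012). *Vim*, on this list and also a fibroblast marker, fell by 1.81 in shSCR and by 1.2 in Empty. Of the 21 listed regulators 6 rose and 2 fell in shSCR, among them *Mycn*, a MYC-family activator of ribosome genes, which rose by 4.13, and *Myc*, part of the induced cassette, which fell by 0.91. Of the 18 nonsense-mediated decay genes 3 rose and 4 fell in shSCR, *Smg1*, the kinase of UPF1, by 0.68 upwards and *Magohb*, an exon junction protein, by 1.65 downwards, and 0 and 2 were called with CPSF3 depletion. No gene of any of these lists was called in T7-TIA1 against Empty by limma.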

How the data were processed

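Members, lists and tests were chosen with earlier results of these data known. Per the labels, the libraries were stranded and polyadenylated. The authors aligned reads to mm10 with STAR 2.7.1a, took CPM (per-library counts over the library total) with edgeR 3.16.5 and removed low genes; the deposited gene values are a signal scaled by a further factor per library, here scaled CPM. The authors deposited splicing as percent spliced in, with read numbers, from vast-tools, for 661941 events. Depth was read from the spacing of low gene values. Groups came from the sample titles, which disagree with the time field for shUL1#2 and the overexpression NI.

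Gene values were fitted as log2(value + 1) with limma 3.58.1 in R 4.3.3 (intensity trend, all groups of an experiment, Benjamini-Hochberg adjustment, threshold 0.05), and contrasts of CPSF3 or UL1 averaged both hairpins. Events were fitted as read-weighted log2 ratios of inclusion to exclusion reads, 1 added to each, with variances moderated by limma. Same-numbered day 12 knockdown libraries deviated together (correlations of 0.67 to 0.95 over 9435 genes) and were taken as pairs in the blocked fits. Named were all host genes and paralogs, a fixed set of well-known members, and up to 5 of the largest called changes in each direction or 3 where none was called; events named were up to 6 per comparison, those of *Rps24* and called host introns. Alternatives were other constants, scalings, filters, blocks, groups and left-out libraries. Scripts were tested on simulated data. Annotation and sequences were read in Python 3.11.15. Some results that the naming rule selects are not reported here.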

Additional observations from a re-analysis of the deposited data

Results flagged for a closer look

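*Snhg18* and *Snhg8* moved in opposite directions in the 2 comparisons of a day 12 control with NI. *Snhg18* had a log2 difference of 0.44 in shSCR against NI and -0.77 in Empty against NI, and *Snhg8* had 0.45 and -0.20; for both genes each shSCR library lay above both NI libraries and each Empty library lay below both NI libraries of its own experiment. The difference between the comparisons was not tested, and none of the 4 values was called by limma.

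Rows of the family that were not among the members, since their symbols belong to copies or are paired with another name in the tables, also carried signal above the day 0 controls in at least one experiment. In the knockdown experiment *Rps3a2* was at 77.0 and 78.3 scaled CPM in NI and 87.8 and 112 in shSCR, and *Rps3a3* was at 303 and 275 in NI and 311 and 405 in shSCR, so the lower shSCR library was little above NI. In the overexpression experiment Empty did not lie above NI for these copies of *Rps3a1*: *Rps3a3* was at 149 and 265 in NI and 183 and 164 in Empty. *Snhg14*, listed in the tables under the name *Ipw*, an imprinted non-coding RNA of the Prader-Willi region, was at 10.3 and 9.10 in NI and 38.8 and 86.1 in shSCR, and at 10.8 and 10.1 in NI and 87.9 and 67.0 in Empty.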

How the results depend on the processing

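Over the named genes and events, 3498 values kept their direction and their side of the threshold under an alternative, 432 lost a call, 69 gained one and 0 reversed. The counts rested more on the choice of fit. A fit of only the compared groups, which leaves fewer libraries for the spread, gave 12 members in place of 25 for shSCR against NI, 0 for CPSF3 against shSCR, 0 for UL1 and 8 for Empty. With equal sums over listed genes, which put the median of all genes at 0.13 in shSCR and 0.19 in Empty against NI, Empty gave 74, UL1 1 and shCPSF3#2 0; with median-of-ratios scaling UL1 gave 7, shCPSF3#2 10 and shUL1#1 2, and with a constant of 4 shCPSF3#2 gave 1. With the replicate block over all groups, shSCR against NI gave 48, CPSF3 84, UL1 27, shCPSF3#2 56, shUL1#1 27 and shUL1#2 4. With the block over day 12 groups CPSF3 gave 87, UL1 51, CPSF3 against UL1 62, shCPSF3#2 66, shUL1#1 57 and shUL1#2 10. NI did not share deviations with same-numbered day 12 libraries (correlations of -0.13 to 0.02). The overexpression numbers (0.17 to 0.31 over 2 numbers) were not taken as pairs, and the block called 25 members there for Empty against NI. For events, a fit of PSI in percent gave 27 for shSCR against NI, 17 for CPSF3, 7 for Empty and 7 for T7-TIA1, and a rule on PSI differences without a test gave 52 for shSCR against NI, 28 for Empty and 20 for T7-TIA1. Causes of these changes were not tested.

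Leaving out 1 library gave 3 to 35 members for shSCR against NI, 2 to 82 for CPSF3 (2 without the second shSCR library), 0 to 7 for UL1, 2 to 65 for Empty, 0 for T7-TIA1, 26 to 82 for shCPSF3#1 (26 again without the second shSCR library), 0 to 3 for shCPSF3#2, 0 to 1 for shUL1#1, 0 for shUL1#2 and 0 for CPSF3 against UL1. For events it gave 25 to 73 for shSCR against NI, 3 to 21 for CPSF3, 0 to 8 for UL1 and 0 for both overexpression comparisons. The planned count tests were not run, because the deposited values are scaled and the worth of 1 read in each library was inferred, not stated. Depth was alike in all libraries, and 2 libraries a group limit every comparison.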
